A study of Mus musculus with 4 samples.

Results

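This account covers 7 immunoglobulin genes measured in mouse cells labelled as T cells: Ighm and Ighd, the mu and delta heavy chain constant genes, the heavy chain joining segments Ighj1 to Ighj4, and Igkc, the kappa light chain constant gene. They were taken by symbol, through gene identifiers, from 50600 genes in each count table, and all 7 were found. Igkc belongs to the kappa locus on another chromosome and serves as the light chain counterpart, so 6 of the 7 lie in the heavy chain locus. The members were chosen by their levels (TPM) in these same libraries, so what is said of their levels and spread describes these libraries and supports nothing by a test.

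RNA came from primary cells of the C57BL/6NJ mouse strain with the cell type label regulatory T cell, in 4 libraries that form 1 group, from 4 biosamples under 1 donor record. Age is given as unknown, no sex was collected and no treatment is listed, and the labels link a CD4 T cell differentiation protocol. The column name in each file carries the word activated and the time mark 00h. The labels call the assay total RNA-seq, while the linked library protocol has PolyA+ in its name. Total counts were 25573253, 62090744, 23000465 and 61943411 in replicates 1 to 4. The 11 T cell markers were all above 1 TPM in every library, from Trac (3435 ± 137 TPM, SD, n = 4), Trbc2 (2840 ± 55.7) and Trbc1 (1916 ± 90.0) down to Cd3g (431 ± 16.1) and Zap70 (414 ± 17.8), where TPM is a length-corrected level whose sum is the same in every library. Markers of regulatory T cells were lower, from Izumo1r (167.5 ± 8.51 TPM), Tnfrsf18 (107 ± 3.81) and Ikzf4 (9.22 ± 1.18) down to Nrp1 (1.29 ± 0.173) and Lrrc32 (0.355 ± 0.131), with Foxp3, the factor that defines the lineage, at 8.28 ± 0.867 TPM.

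In a B cell, heavy chain V, D and J segments are joined by recombination, and the joined exon is spliced to the mu constant exons, with delta made from the same long transcript. A light chain gene is assembled in the same way from V and J segments of the kappa or lambda locus. The heavy chain locus also makes germline transcripts, which start at or near the enhancer between the J segments and Ighm and carry no V segment. The enhancer is known to be active in T cells as well as in B cells, and partial D to J joining is known in T cells, whereas complete heavy chain V assembly is known for B cells. Downstream of that enhancer lies the mu switch region, a run of short repeats used in class switching. A gene count alone does not tell a germline transcript from an assembled one.

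On the mouse build mm10 (GRCm38) the heavy chain locus is read on the minus strand of chromosome 12. Ighj1 (113429781 to 113429833) is followed by Ighj2 (113429468 to 113429567), Ighj3 (113429085 to 113429132) and Ighj4 (113428514 to 113428567). Ighm (ENSMUSG00000076617.9, 113418558 to 113422730) begins 5783 bases after Ighj4 and has 1886 exon bases in 6 intervals. Ighd (ENSMUSG00000104213.5, 113406604 to 113416324) begins 2233 bases after Ighm and has 1900 exon bases in 6 intervals. Igkc (ENSMUSG00000076609.2) is a single exon of 532 bases on the plus strand of chromosome 6, 70726435 to 70726966. No word of 50 bases from Ighm, Ighd or Igkc transcripts occurs in an annotated transcript of another gene. Other genome sequence was not searched.

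The 4 J segments are shown because they are the members whose levels depend most on their length. The sequences are from GENCODE M21 transcripts on GRCm38, minus strand, 5′ to 3′, and capitals mark the 25 bases that are the same in all 4 when their 3′ ends are put in line over 48 bases.
Ighj1: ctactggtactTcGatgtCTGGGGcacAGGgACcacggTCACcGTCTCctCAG
Ighj2: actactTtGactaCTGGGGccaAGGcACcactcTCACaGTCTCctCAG
Ighj3: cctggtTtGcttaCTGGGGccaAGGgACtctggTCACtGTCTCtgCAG
Ighj4: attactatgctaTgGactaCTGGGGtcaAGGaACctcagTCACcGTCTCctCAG
Identity between pairs ran from 62.5% to 75.0%. The overlap a fragment needed was left at the counter's default in the command the file headers give.

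The Ighj2 gene of the count table is longer than its coding segment, because the annotation adds a second model of 54 bases just upstream (113429514 to 113429567). In that stretch, capitals mark a match to GGTTTTTGT, the complement of the nonamer of the recombination signal. The signal lies beside an unjoined J segment and is lost from the chromosome when the segment is joined.
Ighj2 upstream model: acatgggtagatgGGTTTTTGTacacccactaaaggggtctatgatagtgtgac
Of 32851 RefSeq promoter sequences of GRCm38.p6, 0.088% held this nonamer on either strand within their first 54 bases. A count for Ighj2 does not say which of its bases a fragment touched.

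Ighm was the only abundant gene among the 7. It lay at 1162, 1156, 1071 and 1023 TPM in replicates 1 to 4, on 15916, 38195, 13482 and 34580 counts. The mean was 1103 ± 67.35 TPM (SD, n = 4), rank 102 of all genes. The 4 libraries lie close together, with the highest 1.14-fold above the lowest, and the same ratio was smaller in 31.1% of the 12554 genes tested. By mean level Ighm stood just below the ribosomal protein gene Rpl10 (1149 ± 46.8 TPM), the surface protein gene Ly6e (1123 ± 61.0 TPM) and the actin-binding protein gene Flna (1105 ± 69.9 TPM). Just below it stood the T cell receptor joining segment Trbj2-7 (1100 ± 111 TPM), the Ras regulator Rasal3 (1091 ± 81.2 TPM) and Mir5125 (1089 ± 163 TPM). These neighbours differ from Ighm by less than their spread over libraries. Against Trac, the constant gene of the T cell receptor alpha chain (3435 ± 137 TPM), Ighm reached 36.0%, 32.9%, 30.75% and 29.2% of the TPM in replicates 1 to 4.

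Igkc, which every kappa light chain message ends in, was far lower and differed between libraries. Its levels were 64.7, 38.2, 34.9 and 11.2 TPM in replicates 1 to 4, on 250, 356, 124 and 107 counts. Replicate 1 is high and replicate 4 low, with replicates 2 and 3 close together between them. The mean was 37.3 ± 21.9 TPM (SD, n = 4), and the highest library was 5.76-fold above the lowest.

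Ighd, which resting B cells make beside Ighm, was lower again per exon base. Its levels were 15.9, 13.75, 13.2 and 6.96 TPM in replicates 1 to 4, on 220, 458, 167 and 237 counts, with a mean of 12.5 ± 3.85 TPM (SD, n = 4). Replicates 1 to 3 lie together and replicate 4 is low, for a 2.29-fold range. In TPM, Ighd was 1.37%, 1.19%, 1.23% and 0.680% of Ighm in the same library, and Igkc was 5.57%, 3.30%, 3.26% and 1.10% of it. The ranges of Ighd and Igkc overlap across libraries, although Igkc was above Ighd within each library. Ighm overlaps neither of them.

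The J segments had few counts. Ighj1 had 10, 29, 8 and 14 counts in replicates 1 to 4, Ighj3 had 1, 11, 1 and 14, and Ighj4 had 3, 20, 5 and 14. Ighj2 had 0, 12, 0 and 10, where 3 counts would have given 4.13 TPM in replicate 1 and 4.50 TPM in replicate 3. Mean levels were 23.6 ± 6.91 TPM for Ighj1, 14.3 ± 5.51 for Ighj4, 8.84 ± 6.87 for Ighj3 and 3.11 ± 3.63 for Ighj2 (SD, n = 4). Ighj1, the segment farthest from Ighm, was thus the highest by mean, and its range overlaps that of Ighj4 and Ighj3.

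Taken as one region of 255 exon bases, the J segments lay at 7.56, 16.1, 8.23 and 11.4 TPM, or 0.651%, 1.39%, 0.768% and 1.11% of Ighm. In CPM, counts scaled to the library total with no length correction, they were 0.547 (95% Poisson interval 0.299 to 0.919), 1.16 (0.907 to 1.46), 0.609 (0.333 to 1.02) and 0.840 (0.627 to 1.10), intervals that cover counting error only. The order of libraries differs from that of Igkc, since here replicate 2 is highest and replicate 1 lowest. Replicates 1 and 3, the lowest here, also have the smallest library totals (25573253 and 23000465 counts). A link of this order with library depth was not tested. The J region was 0.117, 0.422, 0.236 and 1.01 times Igkc in TPM, so it stood below Igkc in replicates 1 to 3 and level with it in replicate 4. These TPM values rest on very short lengths. With 200 bases added to every length, the log2 ratio of the J region to Igkc moved from -1.60 to -3.19, and that to Ighm from -6.74 to -8.64. Fragments that span a J segment and Ighm touch 2 genes, and how many of them were left out of the counts was not measured.

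**Figure D1:**
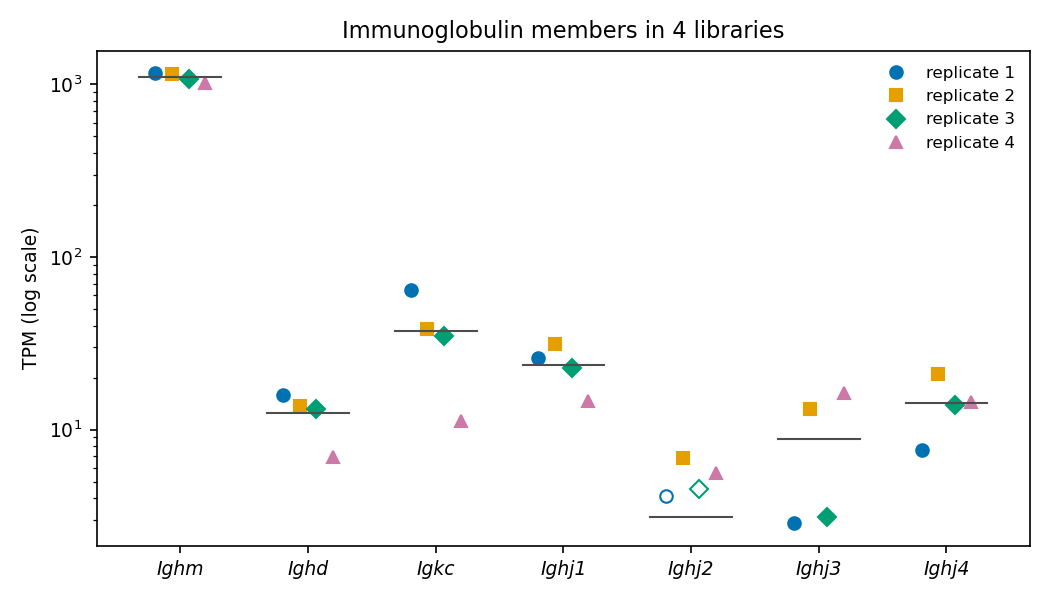
TPM (log axis) of the 7 genes in each of 4 libraries, with a line at the mean; open symbols mark libraries with no count, drawn at the level of 3 counts. Ighm sits between 1023 and 1162 TPM, while Igkc runs from 11.2 to 64.7 TPM.

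Between Ighj4 and Ighm, 4 short genes are annotated as microRNAs, and 2 of them had counts. They are shown because they sample the stretch between the J segments and Ighm, which holds no exon of a member. Gm22175 lies at 113425150 to 113425227 and Gm25747 at 113424645 to 113424722 on the minus strand of chromosome 12. In both, capitals mark the pentamer GAGCT, which repeats as it does in the mu switch region.
Gm22175: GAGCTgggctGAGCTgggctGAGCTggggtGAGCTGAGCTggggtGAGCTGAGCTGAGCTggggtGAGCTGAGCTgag
Gm25747: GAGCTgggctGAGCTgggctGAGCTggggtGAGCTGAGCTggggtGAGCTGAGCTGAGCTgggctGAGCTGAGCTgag
Each holds 10 copies of GAGCT, and they differ by 1 substitution, G64C, counted from the 5′ end of Gm22175. Of the RefSeq promoter sequences, 16.1% held at least 1 copy of GAGCT on either strand within their first 78 bases. Of 2202 microRNA transcripts in GENCODE M21, 6 held 10 or more copies, Gm22175 and Gm25747 among them.

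These 2 genes were well above the J segments. Gm22175 lay at 157, 110.5, 171 and 117 TPM in replicates 1 to 4, on 89, 151, 89 and 163 counts. Gm25747 lay at 134, 77.5, 74.9 and 86.6 TPM, on 76, 106, 39 and 121 counts. As a pair they reached 12.5%, 8.14%, 11.5% and 9.93% of Ighm in TPM, a mean of 10.5% ± 1.92 (SD, n = 4), and the lowest library of the pair (94.0 TPM) was above the highest of any J segment (31.2 TPM). With 200 bases added to all lengths their means fell to 43.9 and 29.5 TPM, and the best J segment, Ighj1, to 5.58 TPM. Each shares 14 of its 29 words of 50 bases (48.3%) with another gene. These are the words without the substituted base, which the pair have in common. The command in the headers does not ask for fragments that align in several places, so the levels are uncertain. The other 2 genes of the interval, both named Gm24022, had no count. Levels of mature microRNAs were not analysed here.

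Upstream of the J segments, the D segments had few counts. The protein-coding gene Adam6b, farther upstream on the plus strand, had 64, 169, 48 and 138 counts in replicates 1 to 4. Ighd4-1, the D segment nearest to Ighj1, had 1, 4, 0 and 2 counts on 11 bases, and 1 other of the 20 D segments, Ighd2-8, had 1 count in 1 library. Of 271 genes annotated from Igha to the last Ighv segment, 83 had a count, and Ighm held 97.0% of the counts of the whole locus.

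**Figure D2:**
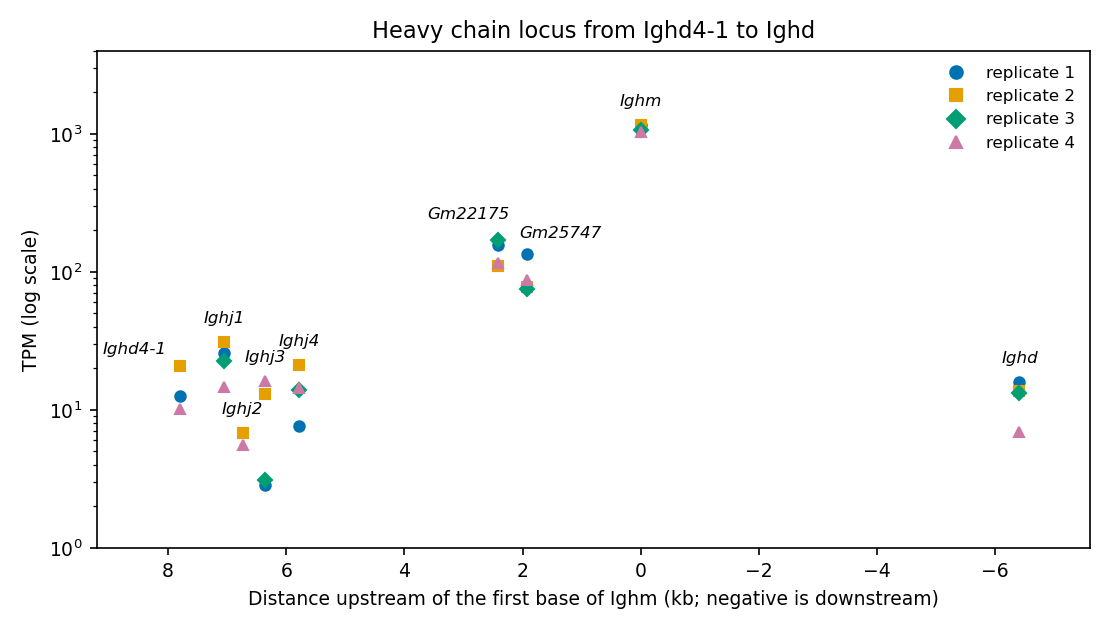
TPM (log axis) in each library against distance in kb from the first base of Ighm, for heavy chain genes from Ighd4-1 to Ighd; libraries with no count are not drawn. The pair of short genes about 2 kb upstream of Ighm lies between the J segments and Ighm in level, and Ighd lies far below Ighm.

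The variable segments, which the choice of the 7 genes did not use, give V counts to set beside those of the constant genes. Each gene was counted separately, so these counts do not show whether a V segment and a constant gene shared a transcript. How many fragments spanning both were left out of the counts was not measured. Summed over 183 Ighv segments the counts were 74, 132, 67 and 47, and summed over 160 Igkv segments they were 149, 187, 72 and 66. Igkv exceeded Ighv in 4 of 4 libraries, by a log2 ratio of 0.52 ± 0.37 (SD, n = 4) or 1.44-fold. The exact two-sided sign-flip permutation test gave p = 0.125, the smallest value possible with 4 libraries, and 0.05 is out of reach. The ratio used a pseudocount of 1. In counts, Ighm was 63.7, 107, 109 and 323 times Igkc in the same libraries.

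Set against their constant genes, heavy and kappa V segments stood far apart. Per 100 Ighm counts there were 0.465, 0.346, 0.497 and 0.136 Ighv counts in replicates 1 to 4. Per 100 Igkc counts there were 59.6, 52.5, 58.1 and 61.7 Igkv counts. The kappa value stayed within a 1.17-fold range although Igkc itself ranged over 5.76-fold, and the heavy value was lowest in replicate 4, where Igkc was lowest too. These ratios have no length correction, and Ighm has 1886 exon bases against 532 for Igkc. As TPM sums the means were 1.85 Ighv per 100 Ighm and 83.5 Igkv per 100 Igkc, a narrower gap. V segments of a family resemble each other, and how many fragments were lost to several alignments was not measured. The counts were spread over many segments. The top segment held 6.25% of Ighv counts (Ighv1-64, 20 counts, followed by Ighv1-39 with 19 and Ighv9-3 with 17). For kappa it held 7.595% (Igkv10-96, 36 counts, followed by Igkv1-135 and Igkv6-17 with 20 each). Kappa J segments had 24 counts in all, led by Igkj2 with 8, then Igkj3 and Igkj5 with 5 each, and lambda J segments had none.

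Other constant genes were scarce. The lambda constant genes Iglc3 (4.84 ± 2.37 TPM), Iglc2 (3.37 ± 2.13 TPM) and Iglc1 (2.11 ± 1.97 TPM) summed to 25.2, 28.65, 27.4 and 20.6 counts per 100 Igkc counts in replicates 1 to 4, a 1.39-fold range. The lambda V segments Iglv1, Iglv2 and Iglv3 had 27 counts together. Of the heavy chain genes used after class switching, Ighg2b had 24 counts in all, 23 of them in replicate 1. Ighg3 had 10, Igha 8, Ighg2c 4 and Ighe 2. Ighg1 had none, where 3 counts would have given 0.0646 to 0.173 TPM.

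**Figure D3:**
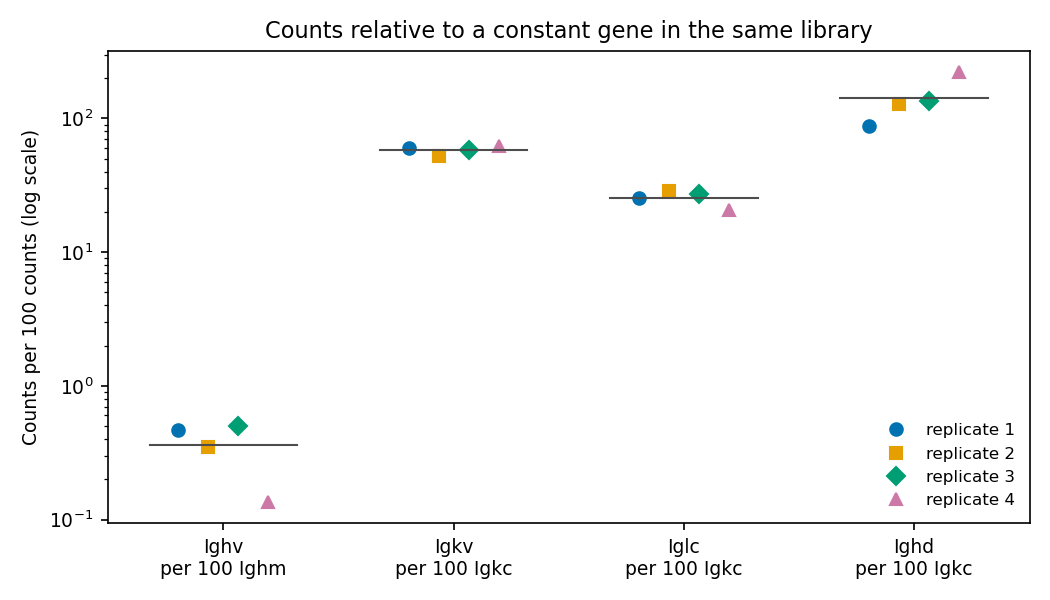
Counts per 100 counts of a constant gene in the same library (log axis), with no length correction, for 4 libraries with a line at the mean. Ighv per 100 Ighm lies at 0.136 to 0.497, whereas Igkv per 100 Igkc lies at 52.5 to 61.7.

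Spread between libraries was measured over the whole table with edgeR, where a gene is called variable if its counts depart from a single level by more than edgeR's dispersion trend allows (deviance against chi-square on 3 degrees of freedom, Benjamini-Hochberg adjusted p below 0.05). Of 12554 genes tested, 142 (1.13%) were called. Nothing in the labels says that the 4 libraries came from separate animals, so the p-values here speak only of differences among these samples, possibly technical ones. Only 3 of the 7 members passed the filter on low counts, and none of the J segments did. Of these 3, Igkc and Ighd were among the called genes and Ighm was not. The members were chosen with these spreads known, so this restates their ranges and is no test of them. Without replicate 4 neither Igkc nor Ighd was among the called genes. Ighd was also not among them without replicate 1, without the filter or with DESeq2. The 2 short genes upstream of Ighm were not called (edgeR adjusted p = 1 for both).

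Of 14 B cell markers tested, 8 were called variable between libraries and 6 were not, beside 1.13% called of all genes tested. In replicate 1 against replicate 4, on TMM-scaled CPM, Igkc was 5.63-fold higher, Ighd 2.24-fold and Ighm 1.11-fold, beside a median of 1.00 over all genes tested. These 2 libraries were picked after their values were seen. Over the same pair the summed Igkv counts were 5.44-fold higher, Ighv 3.80-fold and Iglc 6.90-fold. The summed J segments were 0.649 times, on only 14 and 52 counts. Their Poisson intervals overlap (0.299 to 0.919 and 0.627 to 1.10 CPM). Taken singly, Ighj1 was 1.72-fold higher, Ighj3 0.172 times and Ighj4 0.5165 times, and Ighj2 had no count in replicate 1. All 15 B cell markers had counts in every library, and none was at 0. Their summed level was 89.75, 64.3, 74.05 and 45.7 TPM in replicates 1 to 4, and their median fold between replicates 1 and 4 was 4.02. Cd72 alone gave 25.1, 26.7, 30.2 and 27.8 TPM of these sums, and it was not lowest in replicate 4. In bulk RNA, fewer cells of a type and less RNA per cell cannot be told apart. The part of these markers in the levels of Igkc, Ighd and Ighm was not tested.

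Of the 15 B cell markers, 14 passed the filter and 8 were called variable by edgeR, beside 1.13% of all genes tested. The order with replicate 1 highest and replicate 4 lowest, which was read from the members, was seen in 11 of these 14 markers and in 6.9% of all genes tested. It is given as a description. Among the called markers were the receptor signalling chains Cd79a (8.61 ± 3.91 TPM) and Cd79b (9.31 ± 3.78 TPM), and the lineage factor Pax5 (1.03 ± 0.534 TPM). Ms4a1 (1.31 ± 0.681 TPM), known as CD20, Fcer2a (2.18 ± 1.38 TPM), Cr2 (0.743 ± 0.406 TPM) and Ly6d (6.98 ± 4.26 TPM) were called too. Not called were Cd22 (2.64 ± 1.105 TPM), Blk (1.42 ± 0.731 TPM), Fcrla (1.29 ± 0.635 TPM), Bank1 (0.807 ± 0.326 TPM), Blnk (0.353 ± 0.185 TPM) and Cd72. The last, at 27.4 ± 2.14 TPM, was the most abundant of the list and 0.882 times as high in replicate 1 as in replicate 4. Ebf1 (0.154 ± 0.0914 TPM) did not pass the filter.

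Ighd did not keep a steady ratio to Igkc, with 88.0, 129, 135 and 221.5 counts per 100 Igkc counts in replicates 1 to 4, highest in the library where Igkc was lowest. In TPM, replicate 1 exceeded replicate 4 by 53.5 for Igkc, by 8.98 for Ighd and by 139 for Ighm, so the difference in Ighm is larger in TPM and much smaller as a fold. The highest library of Ighm was 1.135-fold above its lowest. For its neighbours by level this fold ran from 1.103 (Rpl10) to 1.383 (Mir5125), and Ighm was not called variable.

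The genes whose profile over the 4 libraries lay nearest to Igkc were sought among 134 genes outside the immunoglobulin loci. All were called variable and had a mean of at least 1 CPM, so genes not called could not be listed. Likeness was the root mean square distance between centred log2(CPM + 1) profiles on TMM-scaled values, in log2 units, over 4 libraries. Among the nearest 5 were H2-Ab1 (0.112), H2-Eb1 (0.147), Cd74 (0.158) and Siglecg (0.185). The class II genes H2-Ab1 and H2-Eb1 and the invariant chain Cd74 serve antigen presentation in B cells and other presenting cells, and Siglecg is a B cell inhibitory receptor. For Ighd they were Cd79a (0.154), Cr2 (0.159), Gm42047 (0.160), Pax5 (0.161) and Wdfy4 (0.181). In replicate 1 over replicate 4 their folds were 3.22, 4.46, 1.66, 4.41 and 4.13 in that order, against 2.24 for Ighd. The 1 added to CPM shrinks the profiles of low genes, so nearness here does not mean a like fold. Between members, by the same measure, Ighd lay 0.325 from Ighm and 0.351 from Igkc, and Igkc lay 0.659 from Ighm. Of the 10 nearest genes, 5 to each, 7 are in the lists of B cell markers and class II genes, beside 12 of the 134 candidates (8.96%), and with 4 libraries such distances are only a description. Class II genes as a list had 4 of 5 members called, beside 1.13% of all genes tested. By level Cd74 was highest (76.4 ± 40.2 TPM), then H2-Eb1 (19.2 ± 10.8 TPM) and H2-Ab1 (16.1 ± 8.46 TPM). H2-Aa (13.99 ± 6.64 TPM) and the regulator Ciita (1.22 ± 0.561 TPM) were lowest.

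**Figure D4:**
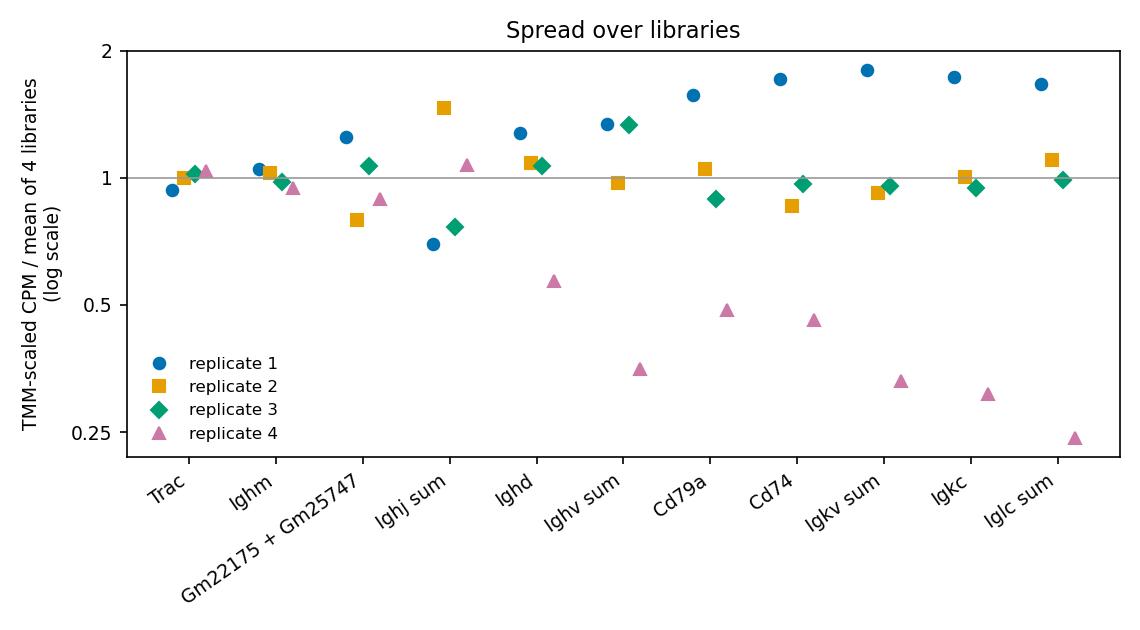
TMM-scaled CPM of each gene or sum divided by its mean over 4 libraries (log axis, 1 point per library). Ighm and Trac stay within 0.899 to 1.11-fold between replicates 1 and 4, and Igkc, Igkv, Iglc, Ighv and the B cell genes are lowest in replicate 4.

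Of 16 factors known to bind the intronic enhancer or its partners, 15 passed the filter and none was called variable by edgeR (1.13% of all genes), with a median fold of 0.996 between replicates 1 and 4. None of the 15 had an unadjusted p below 0.05 in that fit, beside 5.23% of all genes tested, and at these shares a list of this size says little. Ets1 (933 ± 83.7 TPM), Ikzf1 (645 ± 32.4 TPM) and Tcf3 (150.1 ± 13.04 TPM), which encodes the E2A proteins, were highest. Tcf4 (0.402 ± 0.0808 TPM) and Spi1 (0.337 ± 0.176 TPM), the gene of PU.1, were lowest. The recombinase genes were near 0, with 1 count for Rag1 and none for Rag2, while Dntt, which adds bases at joints, lay at 26.65 ± 3.16 TPM. Of plasma cell genes, Xbp1 (46.6 ± 4.17 TPM), Prdm1 (5.74 ± 0.992 TPM) and Mzb1 (1.19 ± 0.654 TPM) were highest, all of which other cells make too. Sdc1 had 22 counts and Tnfrsf17 none.

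Surrogate light chain genes of early B cells were led by Vpreb1 (2.31 ± 0.720 TPM), followed by Vpreb3 (0.761 ± 0.493 TPM) and Igll1 (3 counts), with none for Vpreb2. Genes that act in class switching included Apex1 (82.0 ± 2.31 TPM), Msh6 (81.8 ± 6.51 TPM) and Ung (8.26 ± 0.768 TPM), repair genes that most cells express. Myeloid markers reached 11.7 ± 1.05 TPM for Cd68, 3.80 ± 0.715 for Fcgr3 and 1.78 ± 0.919 for Lyz2, with Adgre1 (0.151 ± 0.0527 TPM) and Cd14 (1 count) lowest. None of the 5 myeloid markers that passed the filter was called variable by edgeR, beside 1.13% of all genes tested. Of them, 1, Lyz2, had an unadjusted edgeR p below 0.05 (adjusted p = 0.629), beside 5.23% of all genes tested. At these shares a list of 5 genes says little.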

How the data were processed

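Each library came as a table of fragment counts per gene, deposited as raw counts in column 7 beside an exon length in bases. Per the file headers, paired fragments with both ends aligned were counted over exons with featureCounts 1.4.6-p4, GENCODE M13 and strand setting 2, and the labels give mm10. The aligner's settings are not given in the sources used here. Gene identifiers were matched to GENCODE M21, also mm10, for symbols and positions, for 50376 of 50600 genes (99.6%). TPM and CPM were computed from the counts, the lengths and the library totals.

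Variability was tested with edgeR 4.0.16 in R 4.3.3 after filterByExpr and TMM scaling, with DESeq2 1.42.0, no filter, no TMM and leaving out each library as alternatives. A single value was tested by exact sign flips. Named genes were the 7 members, other constant genes, the genes from Ighj1 to Ighd, the top 3 V, D and J segments per chain, all B cell markers, the 3 highest and 2 lowest of the other lists, 3 neighbours of Ighm on each side by TPM, and the 5 nearest profiles to Igkc and to Ighd. Further genes named (Foxp3, Adam6b, and more members of short lists) were chosen after their values were seen. Some genes that the rule names are not reported here. The members and lists were chosen with earlier results of these data known. Intervals and the floor of 3 counts cover counting error only. Library totals ranged from 23000465 to 62090744 counts.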

Additional observations from a re-analysis of the deposited data

Results flagged for a closer look

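Of 78 values checked, 4 were flagged because 1 library stood far from the other 3, and for continuous values chance flags about 1 in 20 groups. Ighg2b reached 0.8994 CPM in replicate 1 on 23 counts, with 1, 0 and 0 counts in replicates 2 to 4. The other flagged values rest on 1 to 4 counts in a single library. Ighg2c lay at 0.06442 CPM in replicate 2, Ighe at 0.08695 CPM in replicate 3 and Ighd2-8 at 0.04348 CPM in replicate 3, and each had no count in the other libraries. A gene counted in a single library is flagged whatever its count, so that rate does not apply to these 3.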

How the results depend on the processing

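Over all alternatives, 85 values kept their direction and call, 14 moved, 5 (the calls of Ighd and Igkc) passed the threshold no longer and 0 reversed. Without length correction, in CPM, the log2 ratio of Ighm to Igkc was 6.96 (5.13 in TPM) and that of the pooled J segments to Ighm was -9.62 (-6.74 in TPM). With 200 bases added to every length, the pooled J segments lay at -3.19 against Igkc (-1.60 as annotated) and at -8.64 against Ighm. As TPM sums there were 1.85 Ighv per 100 Ighm (0.361 in counts) and 83.5 Igkv per 100 Igkc (58.0 in counts). The 142 variable genes became 88 with no filter, where 22113 genes were tested and 71 calls were shared, and 60 to 85 when 1 library was left out. The fold range of Ighd was 1.21 to 2.29 and that of Igkc 1.85 to 5.76 when 1 library was left out, lowest without replicate 4 in both, and that of Igkc was 3.40 without replicate 1. The causes were not tested. No paired analysis was possible because all 4 libraries form 1 group. The order with replicate 1 highest and replicate 4 lowest was chosen after seeing the data. It held for Ighm, Ighd and Igkc, the 3 members that passed the filter, with TMM and with library totals alone. With TMM it was seen in 6.9% of all genes tested. Among the 7 members the J segments had the fewest counts, 152 in all.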
